A study of Homo sapiens with 6 samples.

Results

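Target genes of the hypoxia-inducible factors (HIFs) outside glycolysis, with HIF subunits and regulators, were described in 6 RNA-seq libraries of the breast cancer line MDA-MB-231, made with and without knockdown of the long noncoding RNA Smyca. The members were a list of 36 names of HIF subunits, regulators and targets, and 35 of them matched 1 of the 58302 Ensembl genes counted. INSIG2-AS1 matched none and has no value. Each of 6 libraries came from cells stably expressing a short hairpin RNA (shRNA): 3 carried a control shRNA and 3 carried Smyca shRNA #1, and the labels name no other treatment and no low-oxygen culture. The study asked how loss of Smyca changes the transcriptome. Only this 1 hairpin against Smyca was sequenced, so effects of the hairpin and of losing Smyca cannot be told apart. The study calls the replicates biological repeats, but the labels do not say how the cultures were kept apart, and the p-values measure only the spread between these libraries.

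HIFs are transcription factors made of an oxygen-labile alpha subunit (HIF-1alpha, encoded by HIF1A, or HIF-2alpha, encoded by EPAS1) and the stable partner ARNT. With oxygen present, the EGLN prolyl hydroxylases mark the alpha subunit, the VHL protein recognises the mark and the subunit is degraded, while the asparaginyl hydroxylase FIH, encoded by HIF1AN, blunts its activity. With little oxygen the alpha subunit persists, binds hypoxia response elements (short DNA sites) with ARNT, and turns on genes for acid export, vessel growth, mitochondrial turnover, collagen hydroxylation and cross-linking, and its own hydroxylases. In breast tumours these targets are widely used as markers of hypoxia. Much of this control acts on protein stability, which RNA counts do not show.

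Total counts were 16501085, 15560192 and 14999307 in the control libraries and 15714911, 16388020 and 15788258 in the knockdown libraries. Levels are given as CPM, counts scaled in the usual way to a common library size with edgeR's TMM factors. The targeted transcript, Smyca, was read from the gene MIR23AHG. The study describes Smyca as released by Drosha from a primary transcript that also holds microRNA precursors, and counts of the gene may include both. MIR23AHG stood at 25.0, 19.5 and 22.0 CPM in the control libraries and at 10.5, 6.97 and 5.61 in the knockdown libraries. Every control library was above every knockdown library, in keeping with the labels, with a log2 fold change (control over knockdown) of 1.53 (standard error, SE, 0.26, edgeR, Benjamini-Hochberg adjusted p = 0.111).

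The libraries did not in all respects match the label of the cell line. MDA-MB-231 is known as a mesenchymal, triple-negative line. Of 10 markers chosen for it, 9 had at least 10 counts in each library, while SPARC had between 0 and 11 counts. The epithelial keratin KRT8 lay between 4249 and 7408 CPM, EPCAM between 236 and 336 and E-cadherin (CDH1) between 71.5 and 300.1, against 71.2 to 305 CPM of vimentin (VIM). HNF4A, a transcription factor of liver and gut, was at 65.4 to 194 CPM and the brush-border gene VIL1 at 220.5 to 501. Other intestinal markers were low, with at most 6 counts of CDX1, KRT20, REG4 and OLFM4, at most 1.34 CPM of LGALS4, 4.25 of CDH17 and 11.1 of CDX2, while TFF3 lay between 39.2 and 168 CPM. The luminal markers FOXA1, with at most 2 counts, and GATA3, at 1.25 to 3.86 CPM, were also low. The hormone receptors ESR1 and PGR had at most 3 and 0 counts. Of the 10 mesenchymal markers, 4 lay wholly higher in the control libraries, against 12.4% of genes tested, and 1 wholly lower, TGFBI, against 12.5%. The 4 were VIM, ZEB1, ANXA1 and SPARC, and for SPARC the nearest libraries, with 3 and 2 counts, differed by less than counting error. VIM had 305, 200.3 and 148 CPM in the control and 71.2, 105 and 129.7 in the knockdown libraries. In the other marker lists few genes did so, against the same 12.4% and 12.5%. Of 10 luminal and epithelial markers, 0 lay wholly higher in the control libraries and 1 wholly lower, KRT8. Of 10 intestinal markers, 1 lay wholly higher, LGALS4, and 1 wholly lower, VIL1. Of 6 fibroblast markers, 1 lay wholly higher, COL1A1, and 0 wholly lower. Of 8 liver and 5 leukocyte markers, 0 did either. LGALS4 rested on 17, 19 and 21 counts in the control and 11, 9 and 5 in the knockdown libraries. COL1A1, with 138 counts in control 3 and 132 in knockdown 3, was higher by less than counting error. The lowest HNF4A value was that of control 3, against 168 to 194 in the other 5 libraries. CDH1 was at 300.1, 192 and 71.5 CPM in the control and 93.8, 77.6 and 172 in the knockdown libraries. The samples are called here by their labels only.

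Summed over each marker list, the mesenchymal markers reached 2224, 1768 and 1031 CPM in the control libraries and 965, 1056 and 1439 in the knockdown libraries, led by LGALS1 in control 1 and by MSN in the other 5 libraries. The 10 luminal and epithelial markers summed to 8270.0, 7849.8 and 6936 and to 7528, 9297 and 10364 CPM, led by KRT8, and the 10 intestinal markers to 659, 655 and 389.5 and to 825, 816 and 667 CPM, led by VIL1, with CDX1 at 0 in each library. Only SERPINA1 of the 8 liver markers passed 9 counts in any library, with summed levels of 43.2, 49.7 and 28.9 and 74.5, 50.4 and 26.5 CPM, and AFP, APOB, TTR and FGB were at 0 throughout. The 6 fibroblast markers summed to 26.7, 31.6 and 10.5 and to 11.4, 11.1 and 14.3 CPM, led by COL1A1, with COL1A2 at 0 in 5 libraries. The 5 leukocyte markers summed to 1.17, 1.17 and 1.66 and to 0.635, 1.01 and 1.45 CPM, led by CD14, with PTPRC at 0 in each library. In bulk RNA, fewer cells of a type and less RNA per cell cannot be told apart. The mesenchymal sum was highest in controls 1 and 2, the libraries in which most of the 34 genes described below were highest, and its part in those results was not tested.

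The control libraries also differed among themselves. Control 3 had 4.99% of its counts on mitochondrial genes, against 1.78% and 1.99% in controls 1 and 2 and 2.35% to 2.72% in the knockdown libraries, and controls 1 and 2 were more alike than either was to control 3. A gene-wise statistic for the difference between 2 libraries, whose median is 0.455 under counting noise alone, had a median of 3.90 for controls 1 and 2, 15.7 for controls 1 and 3 and 11.3 for controls 2 and 3. Control 3 was closer to knockdown 1 (8.42) than to either other control, and control 2 was closer to knockdown 1 (9.22) than to control 3. Knockdown libraries 1 and 2 were also closer to each other (3.87) than to knockdown 3 (8.72 and 8.41). For control 2 the deposited FPKM column did not follow the count column, a point taken up with the values of control 2 after the gene groups.

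Most of the listed genes were higher in the control than in the knockdown group on average, and within the control group the high libraries were mainly controls 1 and 2. Of the 35 genes, 34 had enough counts to be tested. Among these, 29 had a higher and 5 a lower fitted level in the control, against 53.4% of all genes higher (31 and 3 when libraries were scaled by total counts alone, under which ARNT and AK4 turned to the other side of 0), and the median log2 fold change (control over knockdown) was 1.06, against 0.04 over all 15075 genes tested. The log2 fold change was at least 1 in 18 of the 34, against 6.76% of all genes tested. As the list was chosen with earlier results of these data known, the comparisons with all genes only describe it.

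A gene was called when its Benjamini-Hochberg adjusted p in the quasi-likelihood test of edgeR was under 0.05 and its ratio was 1.5 or higher, or 0.66 or lower. By this rule 0 of the 34 genes were called, against 4 of 15075 genes (0.0265%). The lowest adjusted p among the 34 was 0.111, for WSB1, ADM and PPFIA4. At an unadjusted p under 0.05, 19 of the 34 were higher in the control, against 10.4% of all genes, and 0 were lower, against 8.74%. All 3 control libraries lay above all 3 knockdown libraries in 11 of the 34, against 12.4% of genes tested, and 0 of the 34 lay wholly below, against 12.5%. In CA12, LOXL2, MIR210HG and BNIP3, 4 of these 11, the nearest libraries of the groups differed by less than counting error. DESeq2's Wald test called 10 of the 34, all higher in the control, against 3.2% of 15075 genes called in that direction. With edgeR and no filter beyond 1 count, 15 of 35 were called higher in the control, against 1.87% of 30409 genes.

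The count of calls turned on control 3. Without that library, edgeR called 21 of the 34 higher in the control, against 6.5% of 15449 genes, and in 25 of the 34 all remaining control libraries lay above the knockdown libraries, against 25.1% of 15075 genes. Without knockdown 3 this held for 18 of the 34, against 20.2%. Leaving out any of the other 5 libraries gave 0 calls among the 34. At an unadjusted p under 0.05, 12 of the 34 were higher in the control without control 1, against 6.17% of genes, and 12 without knockdown 2, against 6.02%. The count of 4 genes called in all became 1628 without control 3, 2 without control 2 or knockdown 3, and 0 without control 1, knockdown 1 or knockdown 2.

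**Figure D1:**
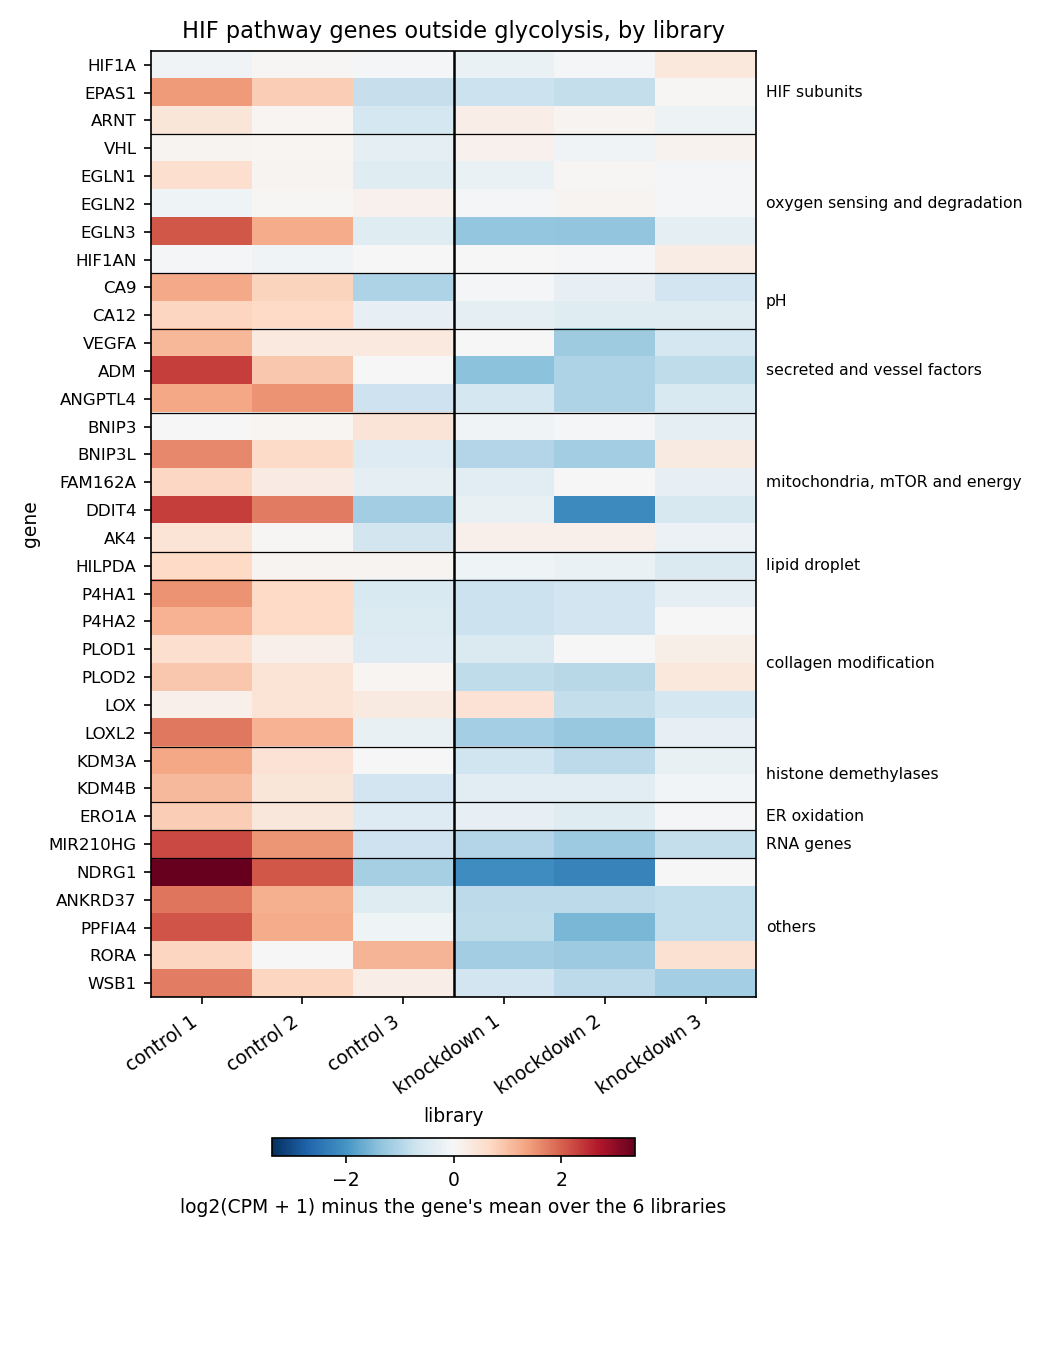
Level of 34 HIF pathway genes in each library, as log2(CPM + 1) minus the gene's mean over the 6 libraries, with genes ordered by role and red above and blue below the mean. By the count columns, controls 1 and 2 are red for most genes, while control 3 is above its mean in 9 of the 34, RORA among them.

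Library by library, many of the 34 genes had a like pattern. Taken as log2(CPM + 1) minus the gene's own mean over the 6 libraries, the median of the 34 genes was 1.12 in control 1, 0.48 in control 2 and -0.37 in control 3. In the knockdown libraries the medians were -0.44, -0.72 and -0.27. Over all 15075 genes tested, the corresponding medians lay between -0.0174 and 0.0140. Control 3 was thus at the level of the knockdown libraries by this median, and controls 1 and 2 stood above all 4. For control 2 this rests on its count column. With the reads behind its FPKM column, described below, the medians were -0.15 in control 2 and -0.18 in control 3.

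Control 1 was the highest of the 6 libraries for 26 of the 34 genes, against 23.4% of all genes tested, and controls 1 and 2 together exceeded the other 4 libraries for 23 of the 34, against 18.2%. Control 3 was the lowest control for 27 of the 34, against 40.8%. Its place relative to the knockdown libraries was near that of genes in general: within their range for 14 of the 34 (36.7% of all genes), above all of them for 13 (32.7%) and below all of them for 7 (30.6%). The coefficient of variation among the 3 controls had a median of 44.5% over the 34 genes and 18.8% over all genes, and among the 3 knockdown libraries 20.8% and 16.3%. Among the knockdown libraries, replicate 3 was the highest for 20 of the 34, against 39.5% of all genes. The share of mitochondrial counts was lowest in controls 1 and 2, where these medians were highest. In control 3 a share of 4.99% stood beside a median of -0.37, and in knockdown libraries 1, 2 and 3 shares of 2.62%, 2.35% and 2.72% stood beside medians of -0.44, -0.72 and -0.27. Its part in the pattern was not tested.

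Of the HIF subunits, HIF1A and ARNT had fitted log2 fold changes near 0, and EPAS1 was uneven. HIF1A was at 84.9, 94.4 and 89.5 CPM in the control libraries and 78.8, 89.4 and 118 in the knockdown libraries, a log2 fold change of -0.09 (SE 0.17, edgeR, Benjamini-Hochberg adjusted p = 0.804). ARNT was at 47.2, 37.2 and 23.2 CPM in the control libraries and 41.7, 38.2 and 31.2 in the knockdown libraries, a log2 fold change of -0.05 (SE 0.25, edgeR, Benjamini-Hochberg adjusted p = 0.935). For both, the libraries of the groups overlapped, the direction turned when 1 library was left out (0.0823 without knockdown 3 for HIF1A and 0.18 without control 3 for ARNT), and the 95% intervals of the log2 fold change ran from -0.49 to 0.31 and from -0.62 to 0.53. EPAS1 was at 10.2, 6.34 and 1.41 CPM in the control libraries and 1.52, 1.39 and 3.24 in the knockdown libraries, a log2 fold change of 1.55 (SE 0.65, edgeR, Benjamini-Hochberg adjusted p = 0.244). Controls 1 and 2 were above the other 4 libraries, and control 3 with 22 counts was within the knockdown range of 22 to 49 counts. The log2 fold change of EPAS1 was 0.93 without control 1.

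Among the oxygen sensors and the VHL ubiquitin ligase subunit, 4 of 5 had log2 fold changes between -0.13 and 0.22. VHL was at 127, 126 and 97.9 CPM in the control libraries and 134, 109.8 and 130.1 in the knockdown libraries (log2 fold change -0.09, SE 0.16, edgeR, Benjamini-Hochberg adjusted p = 0.794). HIF1AN was at 64.2, 61.0 and 65.5 CPM in the control libraries and 66.7, 63.4 and 79.0 in the knockdown libraries (log2 fold change -0.13, SE 0.14, edgeR, Benjamini-Hochberg adjusted p = 0.637), with the smallest coefficient of variation of the 34 genes among the controls, 3.61%. EGLN1, which encodes PHD2, the main prolyl hydroxylase, was at 67.9, 48.1 and 33.6 CPM in the control libraries and 38.4, 46.4 and 43.8 in the knockdown libraries (log2 fold change 0.22, SE 0.24, edgeR, Benjamini-Hochberg adjusted p = 0.65). The groups overlapped in these 3 genes, and control 3 was the lowest of the 6 libraries in VHL and EGLN1. NDUFB8 overlaps HIF1AN on the opposite strand, and with the strand setting of the counting unknown the level of HIF1AN is uncertain. Leaving out control 3 turned VHL to 0.02, and leaving out control 1 turned EGLN1 to -0.06. EGLN2 (PHD1) was at 6.29, 7.20 and 7.88 CPM in the control libraries and 6.73, 7.48 and 6.67 in the knockdown libraries (log2 fold change 0.03, SE 0.23, edgeR, Benjamini-Hochberg adjusted p = 0.947). Its counts are uncertain, because the readthrough gene RAB4B-EGLN2 overlaps it on the same strand.

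EGLN3 stood apart from the other sensors. It encodes PHD3, a hydroxylase that is itself a strong HIF target. It was at 101, 55.7 and 16.9 CPM in the control libraries and 8.76, 8.49 and 18.5 in the knockdown libraries, a log2 fold change of 2.28 (SE 0.59, edgeR, Benjamini-Hochberg adjusted p = 0.126). Control 1 was 5.96 times as high as control 3, which lay within the knockdown range. That ratio within the control group was larger than the fitted ratio between the groups, 4.86. EGLN3 was at a log2 fold change of 1.62 without control 1. SPTSSA overlaps EGLN3 on the same strand, so the counts of EGLN3 are uncertain.

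The pH regulators CA9 and CA12 encode carbonic anhydrases at the cell surface that hydrate CO2 outside the cell. CA12 was at 6.17, 5.85 and 2.56 CPM in the control libraries and 2.54, 2.28 and 2.24 in the knockdown libraries, a log2 fold change of 1.04 (SE 0.38, edgeR, Benjamini-Hochberg adjusted p = 0.193). The groups did not overlap, but control 3 and knockdown 1 had 40 counts each, so their order is within counting error. CA9, at up to 338 CPM in control 1, had its lowest value, 67.4, in control 3, below all knockdown libraries (88.3 to 134). Its log2 fold change was 0.93 (SE 0.48). ARHGEF39 overlaps CA9 on the opposite strand, and the strand setting of the counting is not given in the sources used here.

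Of the secreted factors, the vessel growth factor VEGFA was at 431, 247 and 246 CPM in the control libraries and 197, 84.4 and 129 in the knockdown libraries. All 3 control libraries were above all 3 knockdown libraries, with controls 2 and 3 at nearly the same level. Its log2 fold change was 1.17 (SE 0.33, edgeR, Benjamini-Hochberg adjusted p = 0.137). ADM, the precursor of the vasodilator adrenomedullin (chr11:10305073-10307397, plus strand, GRCh38), was at 64.0, 23.1 and 11.9 CPM in the control libraries and 3.94, 5.19 and 6.07 in the knockdown libraries. Control 3 was 1.96 times as high as the highest knockdown library and control 1 was 5.37 times as high as control 3. The log2 fold change was 2.70 (SE 0.56, edgeR, Benjamini-Hochberg adjusted p = 0.111), and 1.79 without control 1.

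ANGPTL4, a secreted inhibitor of lipoprotein lipase, was at 5.37, 6.34 and 0.576 CPM in the control libraries and 0.698, 0.253 and 0.792 in the knockdown libraries. This rested on 87, 103 and 9 counts in the control libraries and 11, 4 and 12 in the knockdown libraries, so that only controls 1 and 2 were high, and the reads behind the FPKM of control 2 numbered 29 in place of 103. The log2 fold change was 2.80 with a 95% interval of 0.95 to 4.66 (SE 0.81, edgeR, Benjamini-Hochberg adjusted p = 0.14), and 2.10 with those reads. STC1, a secreted glycoprotein, had 2 counts in control 1 and 0 in each of the other 5 libraries and was not tested. A count of 0 over the 3 knockdown libraries allows up to 3 counts, as a 95% limit of counting error on the upper side alone. No difference was detectable at this depth.

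Among the genes of mitochondrial turnover and energy stress, DDIT4 was the most abundant per kilobase. It encodes REDD1, an inhibitor of mTORC1, and was at 1289, 853 and 112 CPM in the control libraries and 211, 56.8 and 175 in the knockdown libraries. Controls 1 and 2 stood far above the other libraries, while control 3 lay between knockdown libraries 2 and 3, and control 1 was 11.5 times as high as control 3. Its log2 fold change was 2.35 (SE 0.78, edgeR, Benjamini-Hochberg adjusted p = 0.169). BNIP3L, a receptor for mitophagy also called NIX, was at 113, 57.3 and 26.5 CPM in the control libraries and 17.8, 15.5 and 44.6 in the knockdown libraries, a log2 fold change of 1.34 (SE 0.55, edgeR, Benjamini-Hochberg adjusted p = 0.233). Here knockdown 3 was above control 3. BNIP3L had 0.70 without control 1 and 1.96 without knockdown 3, and DDIT4 1.72 without control 1, as log2 fold changes.

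The other 3 genes of this role had smaller fold changes. FAM162A, a mitochondrial protein linked to cell death in hypoxia, ran from 48.1 CPM in knockdown 1 to 101 in control 1. BNIP3, the relative of BNIP3L, had only 210 counts over the 6 libraries. Its 3 control libraries (35, 38 and 51 counts) were above the 3 knockdown libraries (30, 33 and 23 counts), though 35 and 33 are within counting error, with a log2 fold change of 0.49 (SE 0.33). GENCODE lists 44 pseudogenes named after BNIP3, so reads may be split or lost and its level is uncertain, and the same holds for AK4, with 5. AK4, a mitochondrial adenylate kinase, had a log2 fold change of -0.03 (SE 0.26), and control 3 was its lowest library at 40.2 CPM.

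HILPDA, which coats lipid droplets and inhibits their lipase, was at 21.0, 13.5 and 13.8 CPM in the control libraries and 11.4, 10.7 and 8.72 in the knockdown libraries, without overlap between the groups. Its log2 fold change was 0.65 (SE 0.24, edgeR, Benjamini-Hochberg adjusted p = 0.204). ERO1A, the oxidase that renews disulfide formation in the endoplasmic reticulum, had a log2 fold change of 0.60 (SE 0.29), with its lowest value again in control 3 (73.6 CPM).

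All 6 collagen-modifying genes had higher fitted levels in the control, against 53.4% of all genes, and 4 had an unadjusted p under 0.05, against 10.4%. Without control 1, PLOD1 turned to -2.81e-02. P4HA1 and P4HA2 encode the catalytic subunits of prolyl 4-hydroxylase, which stabilises the collagen helix. P4HA1 was at 184, 101 and 43.7 CPM in the control libraries and 37.7, 40.2 and 51.3 in the knockdown libraries, a log2 fold change of 1.35 (SE 0.43, edgeR, Benjamini-Hochberg adjusted p = 0.158). P4HA2 was at 52.9, 36.9 and 16.3 CPM in the control libraries and 13.5, 14.3 and 22.6 in the knockdown libraries, a log2 fold change of 1.07 (SE 0.40, edgeR, Benjamini-Hochberg adjusted p = 0.199). P4HA1 had a log2 fold change of 0.75 without control 1. In both genes control 3 was within the knockdown range, and control 1 was 4.21 and 3.26 times as high as control 3.

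LOXL2, a lysyl oxidase that cross-links collagen, was at 28.5, 18.5 and 6.28 CPM in the control libraries and 2.86, 2.53 and 6.07 in the knockdown libraries. Controls 1 and 2 were high, and control 3 with 98 counts was above knockdown 3 with 92 counts by less than counting error. Its log2 fold change was 2.22 (SE 0.56, edgeR, Benjamini-Hochberg adjusted p = 0.124). ENTPD4 overlaps LOXL2 on the same strand, so the counts of LOXL2 are uncertain. The lysyl hydroxylases PLOD1 and PLOD2 and the oxidase LOX had log2 fold changes of 0.22, 0.88 and 0.66, with standard errors of 0.27, 0.37 and 0.46. Their groups overlapped. In LOX, knockdown 1 with 79 counts was level with control 2 with 81, against 23 and 28 in knockdown libraries 2 and 3. LOX had a log2 fold change of 1.40 without knockdown 1. SRFBP1 overlaps LOX on the opposite strand.

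Both histone demethylases in the list had higher fitted levels in the control. KDM3A, which removes methyl groups from lysine 9 of histone H3, was at 98.2, 55.7 and 38.8 CPM in the control libraries and 24.4, 20.8 and 32.7 in the knockdown libraries. The groups did not overlap, and control 3 was 1.19 times as high as the highest knockdown library. In the fit, KDM3A had a log2 fold change of 1.31 (SE 0.33, edgeR, Benjamini-Hochberg adjusted p = 0.125). KDM4B had a log2 fold change of 0.75 (SE 0.37), and control 3 at 47.8 CPM was below all knockdown libraries.

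MIR210HG, the long noncoding host gene of the hypoxia microRNA miR-210 (chr11:565657-568457, minus strand, GRCh38), was at 40.4, 23.8 and 4.42 CPM in the control libraries and 3.49, 2.79 and 4.03 in the knockdown libraries. Controls 1 and 2 were high. Control 3 had 69 counts and the knockdown libraries 55, 44 and 61, so that 69 and 61 are within counting error. In the fit, MIR210HG had a log2 fold change of 2.73 (SE 0.66, edgeR, Benjamini-Hochberg adjusted p = 0.122), and 2.05 without control 1. The precursor gene MIR210, which lies inside the host on the same strand, had 35, 11 and 1 counts in the control and 3, 2 and 1 in the knockdown libraries. Reads from host and precursor cannot be told apart, and the mature miRNA was not measured. Its arms in RefSeq, with the seed (bases 2 to 8) in capitals, are shown because of the size of the difference in the host gene.
hsa-miR-210-3p: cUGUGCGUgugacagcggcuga
hsa-miR-210-5p: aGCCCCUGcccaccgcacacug

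The remaining genes included the largest and the most uneven difference. NDRG1 (chr8:133237175-133302022, minus strand, GRCh38), a stress-responsive gene linked to growth arrest and differentiation, was at 837, 347 and 36.4 CPM in the control libraries and 17.7, 16.0 and 78.7 in the knockdown libraries. Control 1 was 23.0 times as high as control 3, and control 3 was below knockdown 3. The log2 fold change of 3.44 (SE 1.03, edgeR, Benjamini-Hochberg adjusted p = 0.144) had a 95% interval of 1.08 to 5.80. It was 2.37 without control 1 and 4.58 without knockdown 3. The coefficient of variation was 99.2% among the controls and 95.3% among the knockdown libraries, the highest of the 34 genes in both groups.

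WSB1, which encodes a substrate receptor of a ubiquitin ligase (chr17:27294076-27315926, plus strand, GRCh38), was at 145, 71.4 and 50.9 CPM in the control libraries and 27.0, 22.7 and 19.0 in the knockdown libraries. Each control library was above each knockdown library, and control 3 was 1.88 times as high as the highest of them. WSB1 had a log2 fold change of 1.96 (SE 0.36, edgeR, Benjamini-Hochberg adjusted p = 0.111). PPFIA4, a liprin that scaffolds cell contacts (chr1:203026491-203078740, plus strand, GRCh38), was at 57.1, 30.6 and 11.1 CPM in the control libraries and 6.41, 3.61 and 6.47 in the knockdown libraries. Here too control 3 was above the knockdown libraries, 1.72 times the highest of them. In the fit, PPFIA4 had a log2 fold change of 2.58 (SE 0.54, edgeR, Benjamini-Hochberg adjusted p = 0.111), and 1.93 without control 1.

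ANKRD37, a small ankyrin-repeat protein, was at 31.7, 20.7 and 6.08 CPM in the control libraries and 4.13, 4.05 and 4.29 in the knockdown libraries, a log2 fold change of 2.23 (SE 0.51, edgeR, Benjamini-Hochberg adjusted p = 0.114). The knockdown libraries were nearly level at 64 and 65 counts, below 95 counts in control 3. UFSP2 overlaps the gene on the opposite strand. RORA, a nuclear receptor of the clock, had another order of libraries. It was at 9.63, 5.48 and 13.2 CPM in the control libraries and 1.84, 1.71 and 8.06 in the knockdown libraries, highest in control 3 and with knockdown 3 above control 2. Its log2 fold change was 1.29 (SE 0.61, edgeR, Benjamini-Hochberg adjusted p = 0.293), and 2.39 without knockdown 3.

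**Figure D2:**
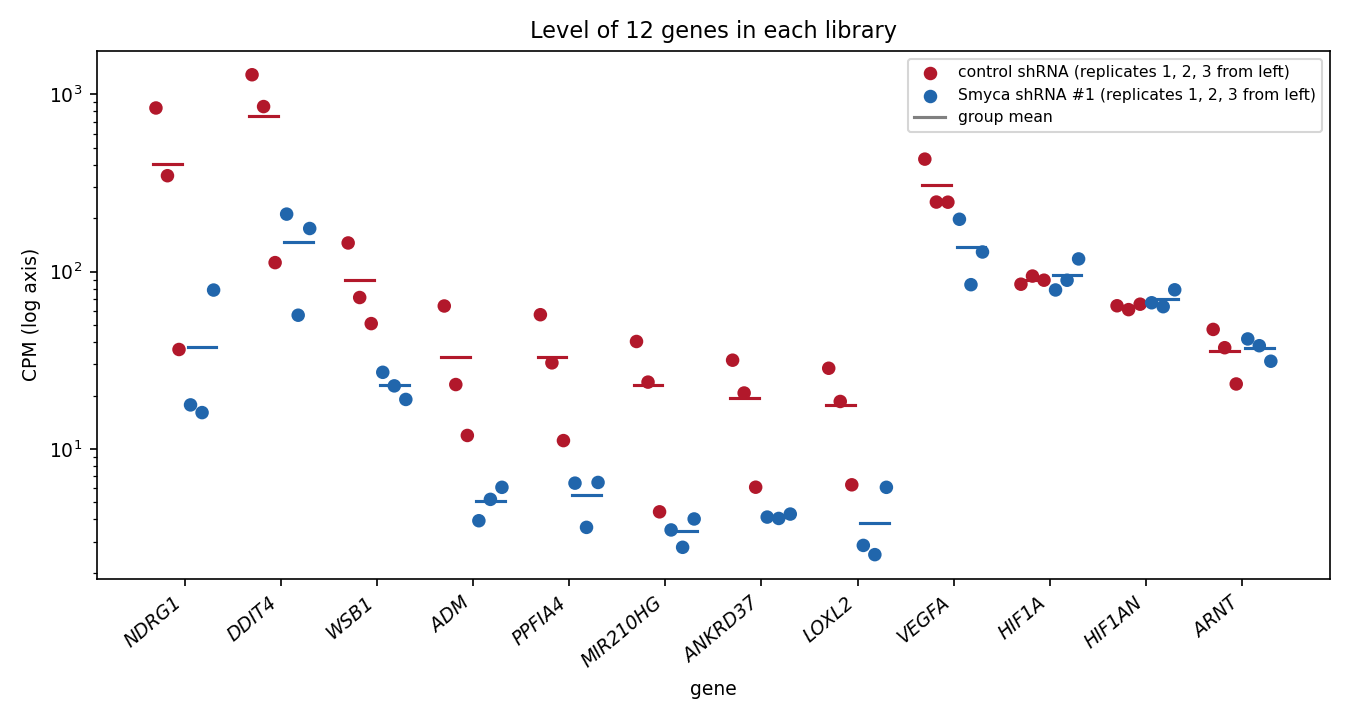
CPM in each library (log axis) of 12 HIF pathway genes, with control libraries in red, knockdown libraries in blue, replicates 1 to 3 from left to right and bars at the group means. The first 9 genes are highest in control 1, and the groups of HIF1A, HIF1AN and ARNT overlap.

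Levels were compared between genes per kilobase of the length behind the authors' FPKM values. Among the 34 genes with at least 30 counts in total, DDIT4 had the highest mean level in the control group, 746 CPM per kilobase, followed by NDRG1 (317), CA9 (213), VEGFA (197) and PLOD1 (172). In the knockdown group PLOD1 (147) and DDIT4 (147) led, and NDRG1 ranked 9 with 29.2 CPM per kilobase. That mean was raised by knockdown 3, where NDRG1 was at 61.4 CPM per kilobase and ranked 6. In knockdown libraries 1 and 2 it was at 13.8 and 12.5 and ranked 16 and 15. Of the alpha subunits, HIF1A was at 45.6 and 48.6 CPM per kilobase and EPAS1 at 4.27 and 1.46. The order by control mean did not hold in control 3, where VEGFA led with 158 CPM per kilobase, followed by PLOD1 (114), DDIT4 (112) and CA9 (67.0), with NDRG1 at 28.4. DDIT4 was above NDRG1 in each of the 3 control libraries. Among the knockdown libraries DDIT4 led in replicate 1 and PLOD1 in replicates 2 and 3.

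**Figure D3:**
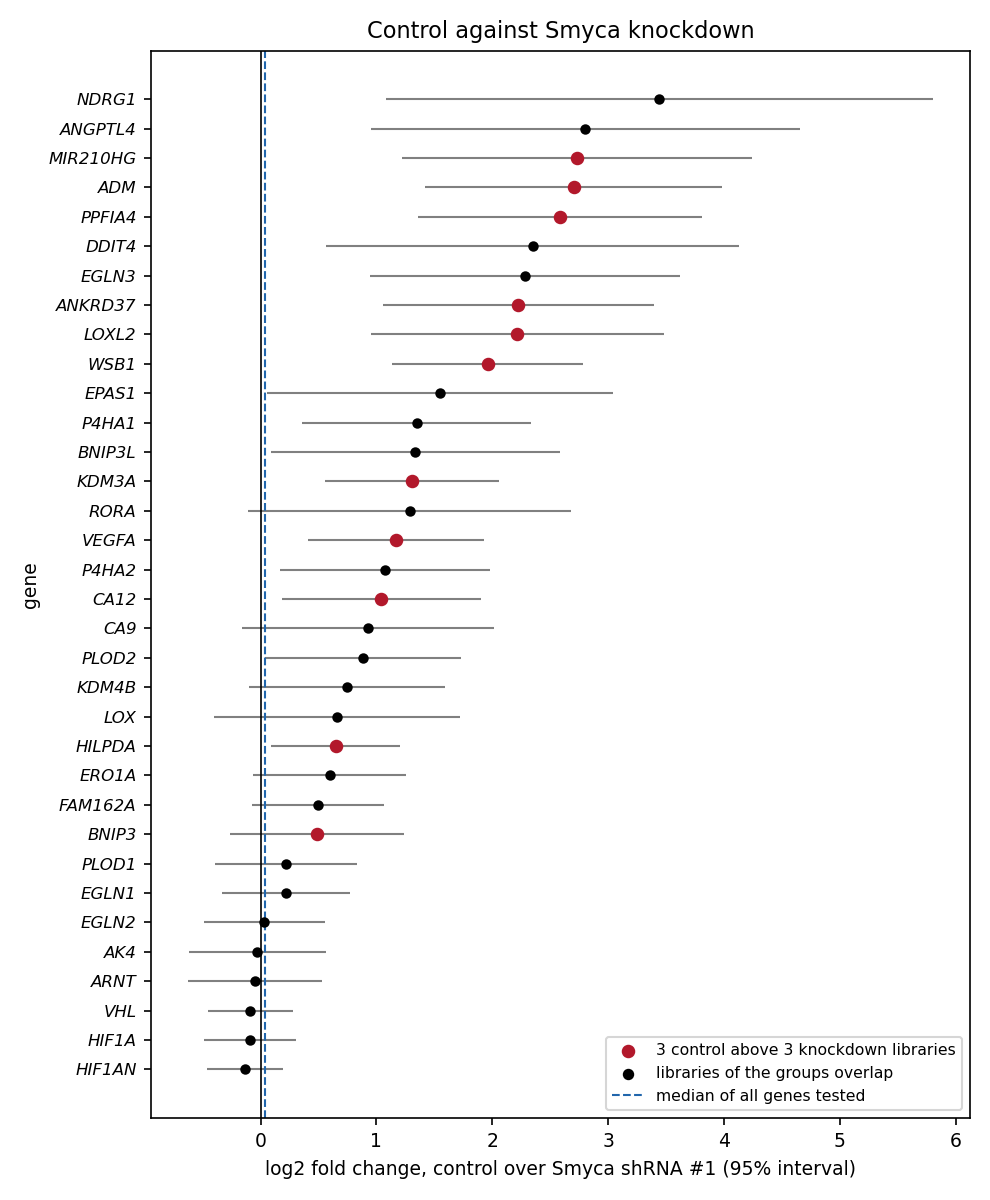
Fitted log2 fold change (control over Smyca shRNA #1) of 34 HIF pathway genes with 95% intervals, and the median of all genes tested as a dashed line at 0.04. Red points mark the 11 genes whose control libraries all lie above the knockdown libraries.

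The promoters of the listed genes were searched for the core letters of the hypoxia response element, ACGTG, and for the related GCGTG, on both strands, in RefSeq's windows of 250 bases before to 50 bases after each gene start (GRCh38.p14). ACGTG also lies inside the E-box CACGTG, which other factors bind. Of the 36 names, 28 had a window, and STC1, NDRG1, INSIG2-AS1, VEGFA, VHL, LOXL2, HILPDA and BNIP3L had none in the table. ACGTG occurred in 17 of these 28 genes, or 60.7%, against 24.9% of the 27305 genes with a window. GCGTG occurred in 16 of 28, or 57.1%, against 40.6%, either of them in 23 of 28, or 82.1%, against 52.4%, and CACGTG in 7 of 28, or 25.0%, against 8.77%. The list was drawn up from the known HIF pathway, and a match is a description of letters, not a site. Some genes with several starts had several windows, and a gene counted as matched when any of its windows did. More windows thus gave more room for a match, and the shares were not adjusted for this.

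Matches were found both in genes with large log2 fold changes and in genes with log2 fold changes near 0. ANKRD37 had ACGTG at -162, -161 and -143 from the start and WSB1 at -101, -58 and -57, while AK4 and EGLN2, at -0.03 and 0.03, held it as well. The 5 genes with neither set of letters in their windows were EGLN3, P4HA2, RORA, ARNT and HIF1AN, and ADM had only GCGTG, at -101. The bases upstream of the start are shown for the 3 genes with the largest log2 fold changes among those with 1 window and no annotated exon in these bases. Capitals mark the matches.
ANGPTL4 (chr19:8363905-8364154, plus strand): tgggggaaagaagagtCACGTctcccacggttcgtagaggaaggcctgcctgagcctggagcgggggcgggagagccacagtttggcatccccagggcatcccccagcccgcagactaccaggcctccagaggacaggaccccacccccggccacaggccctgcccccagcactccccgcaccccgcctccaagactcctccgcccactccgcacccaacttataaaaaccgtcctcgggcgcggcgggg
MIR210HG (chr11:568458-568707, minus strand): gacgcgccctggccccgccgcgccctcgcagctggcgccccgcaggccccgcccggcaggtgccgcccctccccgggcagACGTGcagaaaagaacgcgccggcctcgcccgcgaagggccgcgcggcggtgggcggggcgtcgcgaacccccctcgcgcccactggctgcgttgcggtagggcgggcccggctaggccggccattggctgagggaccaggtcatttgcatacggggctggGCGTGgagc
PPFIA4 (chr1:203026241-203026490, plus strand): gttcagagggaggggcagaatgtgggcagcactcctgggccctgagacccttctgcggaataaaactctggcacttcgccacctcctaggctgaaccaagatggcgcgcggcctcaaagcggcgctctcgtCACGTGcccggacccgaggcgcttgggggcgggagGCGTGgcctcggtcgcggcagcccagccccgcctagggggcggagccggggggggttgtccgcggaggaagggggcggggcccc
In ANGPTL4 the only match, at -234, lies on the reverse strand. GENCODE places the start of ANGPTL4 at chr19:8363289, so the bases shown lie inside the gene as annotated there. In MIR210HG, ACGTG lies at -170 and GCGTG at -9. In PPFIA4, ACGTG lies at -119 and -118 on opposite strands, as a CACGTG, and GCGTG at -84.

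The lists of related genes were read in the same way. Of 30 other HIF targets, 27 were tested, and 23 had a higher fitted level in the control, against 53.4% of all genes, with a median log2 fold change of 0.61. With edgeR 0 were called, with DESeq2 5 higher and 1 lower in the control (3.2% and 2.51% of all genes), and once control 3 was left out edgeR called 11 higher and 1 lower in the control (6.5% and 4.04%). At an unadjusted p under 0.05, 10 of the 27 were higher and 1 was lower, against 10.4% and 8.74% of all genes. The repressor BHLHE40 was at 749.5, 409 and 122 CPM in the control libraries and 77.8, 72.9 and 78.6 in the knockdown libraries, a log2 fold change of 2.48 (SE 0.53, edgeR, Benjamini-Hochberg adjusted p = 0.111). The kinase gene PIM1 was at 26.2, 10.3 and 7.04 CPM in the control libraries and 1.78, 0.824 and 5.41 in the knockdown libraries (log2 fold change 2.44, SE 0.70). Control 3 was above all knockdown libraries in both. The transferrin receptor TFRC, also a HIF target, was lower in the control, at 304, 367 and 295 CPM in the control libraries and 457, 584 and 655 in the knockdown libraries (log2 fold change -0.81, SE 0.18, edgeR, Benjamini-Hochberg adjusted p = 0.111), with no overlap between the groups.

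Among 14 HIF cofactors and regulators, 13 were tested, and their median log2 fold change was -0.17, against 1.06 for the 34 genes. With edgeR 0 were called, with DESeq2 0 higher and 1 lower in the control (3.2% and 2.51% of all genes), and once control 3 was left out edgeR called 0 higher and 1 lower in the control (6.5% and 4.04%). At an unadjusted p under 0.05, 0 of the 13 were higher and 2 lower in the control, against 10.4% and 8.74% of all genes, and these 2 were the coactivator genes CREBBP and EP300. CREBBP was at 108, 92.2 and 119 CPM in the control libraries and 166, 193 and 179.6 in the knockdown libraries, a log2 fold change of -0.75 (SE 0.15, edgeR, Benjamini-Hochberg adjusted p = 0.111). Of 20 glycolytic HIF targets, all tested, 17 had a higher fitted level in the control with a median log2 fold change of 0.39, 4 of them with an unadjusted p under 0.05, against 10.4% of all genes. With edgeR 0 were called, with DESeq2 3 higher and 0 lower in the control (3.2% and 2.51% of all genes), and once control 3 was left out edgeR called 9 higher and 0 lower in the control (6.5% and 4.04%). ENO2 reached the highest log2 fold change among these 20, 2.54 (SE 0.62), with 389, 159 and 53.9 CPM in the control and 29.0, 26.0 and 48.9 in the knockdown libraries.

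Control 2 carried conflicting records of these genes. In the other 5 libraries each gene's FPKM followed from its count and a gene length. In control 2 it did not, and an FPKM above 0 stood beside a count of 0 in 3357 genes. The FPKM values of that library corresponded to whole reads (within 0.05 read for 100% of 23593 genes with a known length), 16759253 in all. Across 15068 genes, the log2 values of these reads correlated at 0.996 with control 3 and at 0.965 with the count column of control 2, though genes are not independent replicates. The pair statistic between these reads and control 3 had a median of 0.957, lower than for any pair of count columns.

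For many of the 34 genes, though not for all, the level of control 2 depended on the choice of column. In CPM, the count column was above the reads behind the FPKM in 30 of the 34 genes, against 7477 of 15064 genes. The ratio was over 2-fold in 14 of the 34, against 1072 of the 15064. Its median was 1.75 for the 34 and 0.997 over the 15064. NDRG1 had 5646 counts in the count column and 598 reads behind the FPKM, and DDIT4 had 13857 and 1891. VEGFA, with 4010 counts and 4546 reads, and RORA, with 89 and 150, were among the 4 that went the other way in CPM. The reads behind the FPKM were within 1.5-fold of control 3 in 30 of the 34 genes. No such count was made over all genes, whose reads correlated with control 3 at 0.996. Which of the columns belongs to control 2 cannot be told from these files.

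With these reads in place of the count column, control 1 was the only library in which the median of the 34 genes, relative to their means, was above 0 (1.16). The median log2 fold change of the 34 genes was 0.73 in place of 1.06, edgeR called 0 of them, and 12 in place of 19 were higher in the control at an unadjusted p under 0.05, against 10.6% of all genes. The median of control 2 relative to the 6 libraries went from 0.48 to -0.15. NDRG1 had a log2 fold change of 2.99 in place of 3.44, DDIT4 1.75 in place of 2.35, ANGPTL4 2.10 in place of 2.80, ADM 2.49 in place of 2.70 and WSB1 1.86 in place of 1.96. All control libraries lay above all knockdown libraries in 10 of the 34 genes, against 13.9% of all genes. Of these 10, 9 were among the 11 found with the count column, CA12 and LOXL2 were no longer among them, and RORA was added.

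**Figure D4:**
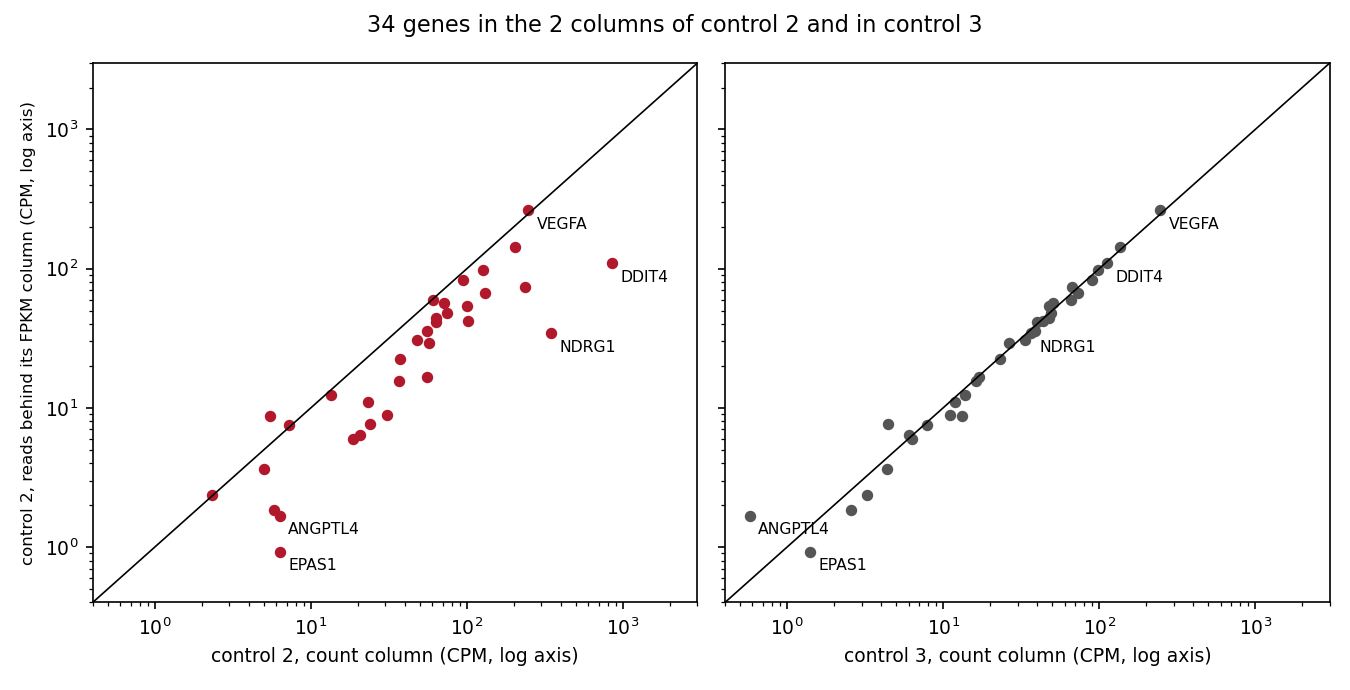
Each point is 1 of 34 HIF pathway genes, with the level in control 2 from the reads behind its FPKM column (CPM, log axis) against its count column on the left and against control 3 on the right, where the line marks equal levels. On the left 30 of the 34 points lie below the line, and on the right 30 lie within 1.5-fold of it.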

How the data were processed

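RNA was measured in 3 control shRNA and 3 Smyca shRNA #1 libraries, grouped by their labels. The authors depleted rRNA, made strand-specific libraries and mapped paired reads to GRCh38 with TopHat2 2.0.12, per the labels. Counting was done with HTSeq. For every library the deposited file gives raw read counts and FPKM of 58302 Ensembl genes. The annotation release and the strand setting of the counting are not given in the sources used here. Symbols came from GENCODE release 44, which named 57532 identifiers. Promoters and miRNAs came from RefSeq (GRCh38.p14).

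The counts entered edgeR 4.0.16 under R 4.3.3 (TMM, filterByExpr, quasi-likelihood test of control against knockdown, Benjamini-Hochberg adjustment over all genes tested). The biological coefficient of variation was 25.2%. Intervals are 95% and rest on the degrees of freedom of the fit. Total counts lay between 14999307 and 16501085. The alternatives were DESeq2 1.42.0, RLE size factors, total counts, other filters, a replicate block, each library left out, and whole reads recovered from control 2's FPKM. The code was tested on simulated data. Tables and figures used Python 3.11.15, pandas 2.3.3 and matplotlib 3.10.9.

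The members and lists were chosen with earlier results of these data known. Full values are given for HIF subunits, sensors and members with a log2 fold change of at least 1 in size, counts only for those below 30 counts in total, and examples for the others. BHLHE40, PIM1, TFRC, CREBBP, EP300, ENO2 and the marker genes singled out were named after their values were seen.

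Of the 35 matched genes, 16 overlap a gene on the other strand and 13 a gene on the same strand in GENCODE, and 6 have pseudogenes named after them.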

Additional observations from a re-analysis of the deposited data

Results flagged for a closer look

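The FPKM column of control 2, which enters no main comparison, held a signal that the count column lacks: 3357 genes with 0 counts in that library had an FPKM above 0, whereas the other 5 libraries had 0 such genes.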

How the results depend on the processing

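The 441 values of single genes under the alternatives comprised 380 that kept both their direction and their side of the threshold, 46 that kept their direction and newly passed it, and 15 that reversed. For 27 of the 34 genes tested no alternative reversed the direction. The 4 genes called became 8 with total counts, 916 with no filter beyond 1 count, 860 with DESeq2 and 10 with the reads behind the FPKM of control 2, and ranged from 0 to 1628 with 1 library left out. Calls among the 34 genes went from 0 to 15 without the filter, to 10 with DESeq2, and ranged from 0 to 21 with 1 library left out. Genes with an unadjusted p under 0.05 ranged from 1687 to 4575 with 1 library left out. Those of the 34 with such a p were 12 with the reads behind the FPKM and ranged from 12 to 24 with 1 library left out. The causes of these differences were not tested.

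Alternatives for the count of groups without overlap and for the library medians were chosen after seeing the data. The count ranged from 11 to 25 with 1 library left out. The median of control 2 was -0.15 with the reads behind its FPKM. Among the reversals, ARNT had a log2 fold change of 0.0132 and AK4 of 0.0323 with total counts, and EGLN2 had -0.0004318 without the filter and -0.00621 with DESeq2. With 1 library left out, HIF1A ranged from -0.22 to 0.0823, ARNT from -0.29 to 0.18, VHL from -0.18 to 0.0212, EGLN1 from -0.0647 to 0.43, EGLN2 from -0.0496 to 0.12, AK4 from -0.30 to 0.21 and PLOD1 from -0.0281 to 0.44. For these, too, the cause was not tested.

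With replicate number as a replicate block, 0 genes were called, and the lowest adjusted p among the 34 was 0.154 (edgeR). In that fit 13 of the 34 were higher in the control at an unadjusted p under 0.05 (edgeR), against 1391 of 15075 genes. Libraries of the same number correlated at 0.0536, 0.0938 and 0.0207 after removal of group means across genes, and share only a number. The median log2 fold change of all genes was 0.04 with TMM, 0.02 with RLE and 0.11 with total counts. Depth limits STC1, whose 2 counts in the controls have a Poisson 95% interval of 0.242 to 7.22, and leaves wide counting error for ANGPTL4, BNIP3 and LOX.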
